A study of Mus musculus with 122 samples.

Results

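CTCFL-only promoter sites are places in the genome of mouse embryonic stem cells where FLAG-tagged CTCFL was found near a gene start and FLAG-tagged CTCF was not. They were chosen from the deposited FLAG peak lists: peaks of both replicates were merged where they overlapped by 1 bp, a merged peak was kept as a site if both replicates had a peak in it, and a CTCFL site was taken if it had no 1 bp overlap with a CTCF site and its middle lay within 1 kb of an annotated start site. The CTCFL sites came from cells with Dox alone and the CTCF sites from cells with IAA and Dox, and chromosomes 1 to 19 and X were used. Of 22294 CTCFL sites, 3564 met this rule, against 2134 promoter sites that overlapped a CTCF site, 4603 CTCFL-only sites away from start sites and 11993 shared sites away from start sites. Since the height of the CTCFL peaks and the absence of a CTCF site chose these sites, both are given as a description, with no test. Just inside the distance limit, 95 sites had their middle 900 to 1000 bp from a start site, and just outside it 76 CTCFL-only sites had theirs within the next 100 bp.

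All groups were made from E14Tg2a, an XY mouse embryonic stem cell line of the 129/Ola background, grown without feeders. Every line carried CTCF-AID, endogenous CTCF with an auxin-inducible degron, together with Tir1, the plant protein that lets auxin (IAA) trigger its degradation, and a Dox-inducible transgene at Tigre with a Flag tag and mRuby 2. The transgene was CTCF, CTCFL or a chimera named by the source of its N terminus, zinc fingers and C terminus, with C for CTCF and L for CTCFL: LCL, CLC, CLL and LLC. Lines were grown from picked colonies, so the effect of a transgene and that of its clone cannot be told apart. U stands for untreated cells, I for IAA, D for Dox and ID for both, so D cells kept endogenous CTCF and ID cells had lost it. Treatment lasted 24 h by the labels of the RNA-seq and RAD21 libraries and of FLAG in CTCF, CTCFL, LCL and CLC, and 48 h by those of FLAG in CLL, LLC and the RNase and mock samples. The treatment protocol gives 2 days as the default, and this was not resolved. FLAG and RAD21 ChIP had 2 replicates per group, for which the smallest p that an exact two-sided permutation test allows is 0.333, so no test was run between ChIP groups. RNA-seq of the CTCFL line had 3 U, 3 I, 3 D and 2 ID libraries of 6847072 to 43154741 reads recovered from the table, D replicate 3 being the shallowest, the next shallowest U replicate 1 at 18820806, and no reads being recovered for replicate 2 of I and of ID. Nothing in the labels says that replicates were separate cultures, so p-values measure the spread between these libraries, which may be technical.

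CTCF is a ubiquitous zinc finger protein that binds a long GC-rich motif and stops cohesin, the ring complex that extrudes chromatin loops and of which RAD21 is a subunit. CTCFL, also called BORIS, is its paralog with very similar zinc fingers and different N and C termini, and in healthy animals it is made in male germ cells before meiosis. CTCFL is known to bind at active promoters, and the germline genes Prss50 and Stra8 are among its known targets.

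Windows around the summit of the CTCFL peak are shown for 7 sites: those of genes that the study names and that lie at a site (Ctcfl, Prss50, Stra8, Klf10), then those of the 3 other genes with the largest rise in RNA (Pvalb, Tmem132e, Ror1). Each is the forward strand of GRCm38 within 100 bp of the summit, with annotated UTR bases left out. Capitals mark a match to the core of the CTCF matrix described further on, scoring above 10.2, or, where there is none, copies of its central letters AGGGGGC on either strand.
Ctcfl: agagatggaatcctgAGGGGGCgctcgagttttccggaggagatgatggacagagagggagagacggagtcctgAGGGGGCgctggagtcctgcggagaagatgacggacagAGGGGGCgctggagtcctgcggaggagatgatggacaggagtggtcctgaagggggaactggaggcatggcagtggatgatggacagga
Prss50: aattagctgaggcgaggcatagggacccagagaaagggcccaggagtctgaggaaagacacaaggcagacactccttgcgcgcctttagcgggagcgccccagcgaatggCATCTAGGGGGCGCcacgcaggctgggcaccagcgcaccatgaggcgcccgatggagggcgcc
Stra8: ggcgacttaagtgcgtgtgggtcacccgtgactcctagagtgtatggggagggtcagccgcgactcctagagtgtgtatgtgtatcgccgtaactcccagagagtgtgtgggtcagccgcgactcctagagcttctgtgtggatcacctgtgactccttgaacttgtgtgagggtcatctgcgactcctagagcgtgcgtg
Klf10: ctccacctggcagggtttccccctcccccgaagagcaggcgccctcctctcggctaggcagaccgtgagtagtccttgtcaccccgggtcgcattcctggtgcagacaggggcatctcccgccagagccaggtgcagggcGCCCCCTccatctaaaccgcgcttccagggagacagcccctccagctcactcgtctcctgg
Pvalb: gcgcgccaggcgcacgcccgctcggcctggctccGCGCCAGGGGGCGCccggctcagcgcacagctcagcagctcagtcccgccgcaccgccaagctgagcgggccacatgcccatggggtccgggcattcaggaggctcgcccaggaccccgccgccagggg
Tmem132e: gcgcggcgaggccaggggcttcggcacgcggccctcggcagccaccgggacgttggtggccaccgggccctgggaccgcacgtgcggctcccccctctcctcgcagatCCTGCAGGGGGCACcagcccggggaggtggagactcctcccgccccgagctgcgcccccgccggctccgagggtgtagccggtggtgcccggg
Ror1: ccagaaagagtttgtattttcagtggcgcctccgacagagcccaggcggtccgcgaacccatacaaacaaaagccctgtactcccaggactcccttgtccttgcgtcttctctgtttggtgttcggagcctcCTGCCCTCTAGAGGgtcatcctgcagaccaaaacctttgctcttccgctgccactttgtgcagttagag
The Ctcfl window (chr2:173119691-173119891), 166 to 366 bp upstream of the start site, held 3 copies of the core centre in the same direction within a repeated unit, and 154 of its bases are exon of the antisense gene Ctcflos. The windows of Prss50 (chr9:110857794-110857966, upstream of the first base), Pvalb (chr15:78204238-78204400) and Tmem132e (chr11:82388685-82388885, intergenic) each held 1 match, with scores of 12.7, 10.8 and 16.4. The Ror1 window (chr4:100096666-100096866) lay in an intron, 875 to 1075 bp into the gene, and held a match on the reverse strand with a score of 15.1. Stra8 (chr6:34921191-34921391, intronic, 181 to 381 bp downstream of the start) had neither a match nor a copy of the core centre. Klf10 (chr15:38300077-38300277, 429 to 629 bp downstream) had 1 copy of the core centre on the reverse strand and no match. So 4 of these 7 windows held a match, 2 held only the core centre and 1 held neither.

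The sites were placed near gene starts by the rule, so their distances to a start are given as a description. The summit, taken from the replicate with the higher −log10 q, was at a median of 235 bp from the nearest start (quartiles 94 and 459.2 bp), 944 summits (26.5%) were within 100 bp, and 46.5% lay upstream and 53.3% downstream. The nearest gene was protein coding at 3062 sites (85.9%). At 485 sites (13.6%) the starts within 1 kb of the middle included those of 2 different genes that run apart from each other. The sites touched 4239 genes, among them 3457 of 21727 annotated protein-coding genes (15.9%). One gene lay at 2793 sites and 2 to 4 genes at 771, 141 genes had 2 or more sites, and 88 genes also had a shared promoter site. Of the 4239 genes, 4080 were in the RNA table and 3326 passed the filter on low values.

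The CTCFL peaks at these sites were lower than those at shared promoter sites. Fold enrichment over the local background, as the peak caller gave it, had medians of 4.75 in replicate 1 and 4.63 in replicate 2, against 6.05 and 6.54 at shared promoter sites. When all CTCFL sites were divided into 3 strength classes of equal size by the fold of their weaker replicate, with limits at 4.27 and 5.63, 1764 CTCFL-only promoter sites (49.5%) fell in the low class, 1203 (33.8%) in the middle and 597 (16.8%) in the high class, while 53.6% of shared promoter sites were in the high class. CTCFL-only sites away from start sites were divided like the promoter ones, with 50.3%, 33.9% and 15.8%.

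The name CTCFL-only holds for the lists that the rule used and less well for single CTCF libraries. A peak in at least 1 of the 4 CTCF lists was present at 1565 sites (43.9%). CTCF D, which the rule did not use, had a peak at 18.9% of sites in replicate 1 and 42.9% in replicate 2, and 680 sites overlapped a merged CTCF D peak that both replicates support, which may reach beyond the CTCFL site. CTCF ID had one at 10.4% in replicate 1 and 0.281% in replicate 2, which is the group that the rule used, and the separate mock-treated CTCF ID sample had 0.477% in both replicates. Where CTCF D had a peak, its fold was lower than at shared promoter sites, with medians of 4.77 and 4.18 in the replicates against 8.88 and 6.16. At 1999 sites (56.1%) none of the 4 lists had a peak, and these are given separately where they differ.

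**Figure D1:**
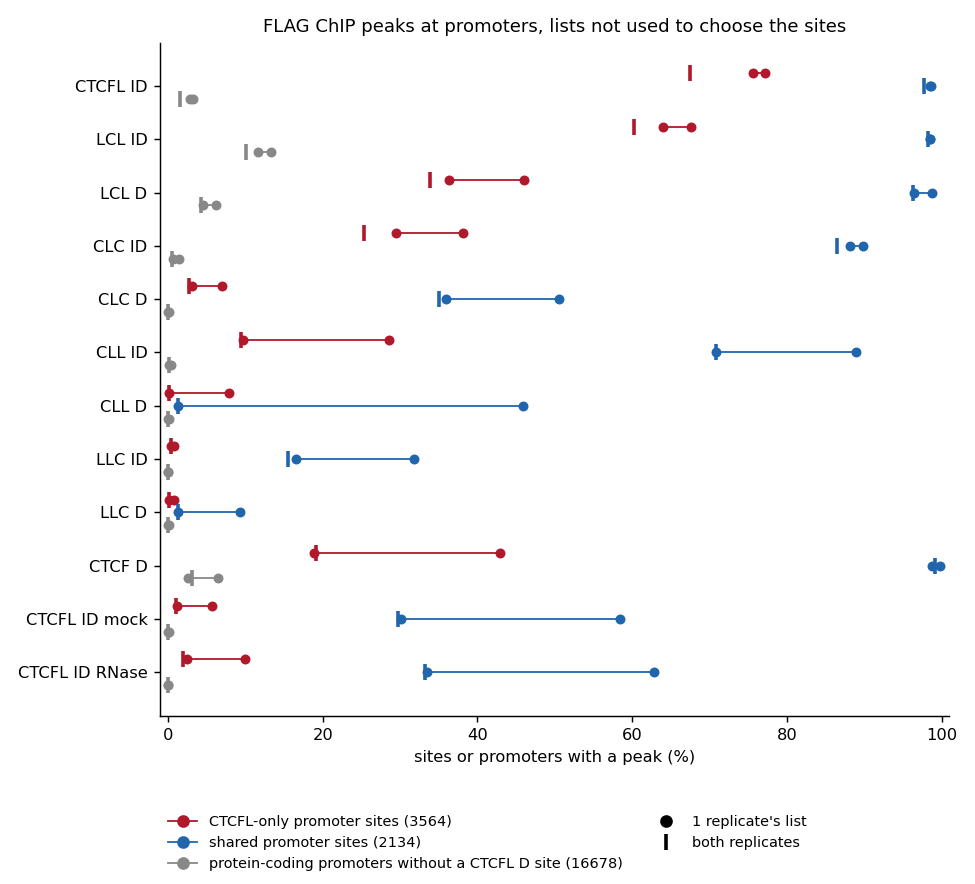
Share (%) of CTCFL-only promoter sites, shared promoter sites and protein-coding promoters without a CTCFL D site with a FLAG peak in each group, with a point for each replicate's list and a tick for peaks in both replicates. At CTCFL-only promoter sites the ticks are at 67.5% for CTCFL ID, 60.2% for LCL ID and 25.3% for CLC ID.

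Chimeras with either set of zinc fingers were found at CTCFL-only promoter sites, LCL at more of them than CLC. After loss of endogenous CTCF, CTCFL itself had a peak at 75.6% and 77.2% of sites in the replicates and at 2405 sites (67.5%) in both. LCL, the CTCF zinc fingers between CTCFL termini, had one at 64% and 67.6%, and at 2144 sites (60.2%) in both. CLC, the CTCFL zinc fingers between CTCF termini, had one at 38.2% and 29.5%, and at 902 sites (25.3%) in both. Both LCL ID replicates were thus above both CLC ID replicates. The lists were of unequal length, 58648 and 60799 peaks for LCL ID against 33543 and 25137 for CLC ID. When the 25137 top-ranked peaks of each list were used, a choice made after the lists had been seen, CTCFL ID had 46.6%, LCL ID 21.9% and CLC ID 20.6%. So the gap between LCL and CLC was much narrower at equal list length.

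At shared promoter sites nearly all were found by CTCFL ID (97.7%) and LCL ID (98.2%), and 86.5% by CLC ID. At CTCFL-only sites away from start sites CTCFL ID had 70.7%, LCL ID 34.3% and CLC ID 33.3%, and at equal list length 48.5%, 8.99% and 26%. Protein-coding promoters without a CTCFL site served as the background, in windows of the sites' median width of 768 bp, and of them CTCFL ID had 1.55%, LCL ID 10.1%, CLC ID 0.492% and CTCF D 3.05%. Of these groups LCL ID had the highest background at promoters, and its share at CTCFL-only promoter sites stood above that background.

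With endogenous CTCF present the lists of the chimeras held fewer of the sites. LCL D had a peak in both replicates at 33.9% of CTCFL-only promoter sites and CLC D at 2.75%, against 96.3% and 35% of shared promoter sites. Each CLC D replicate (3.06% and 7.01%) was below each CLC ID replicate, and the same held for LCL D (36.3% and 46%) and LCL ID. The D lists were also shorter, with 10284 and 16008 peaks for CLC D and 42751 and 54446 for LCL D. With the 2233 top-ranked peaks of each list CLC D had 0.253% and CLC ID 0.14%, and LCL D 0.337% and LCL ID 0.309%. At that length CTCFL ID itself had only 0.505%, so too few sites were found to compare D with ID. The difference between D and ID therefore cannot be told apart from list length. CLL, in which only the N terminus is that of CTCF, had 9.71% and 28.6% in ID and 0.168% and 7.94% in D. LLC, in which only the C terminus is that of CTCF, had 0.393% and 0.814% in ID and 0.196% and 0.786% in D. Its lists held 3827 to 12977 peaks, and at shared promoter sites LLC ID reached 15.5% in both replicates. CLL D had lists of 2233 and 14985 peaks, and its 2 replicates stand far apart. CLL and LLC were the lines labelled with the longer treatment.

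Binding in the 5 groups set side by side here was more frequent where CTCFL D was stronger. From the low to the middle and the high strength class, CTCFL ID had 47.8%, 81.3% and 97.8% of sites, LCL ID 48%, 65.5% and 85.4%, CLC ID 8.16%, 26.5% and 73.5%, CLL ID 1.81%, 6.73% and 37.7%, and CTCF D 12%, 19.7% and 38.9%. In the low strength class of shared promoter sites CTCFL ID had 91.2%, LCL ID 94.9% and CLC ID 60.9%, each above its share in the low strength class of CTCFL-only promoter sites. At the 1999 sites without a peak in any CTCF list, CTCFL ID had 57.2%, LCL ID 35.8%, LCL D 7.6% and CLC ID 13.9%.

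Site by site, CTCFL ID, LCL ID and CLC ID were all present at 711 sites (19.9%) and all absent from 673 (18.9%). CTCFL ID and LCL ID without CLC ID made the most frequent combination, with 966 sites (27.1%), followed by CTCFL ID alone with 589 (16.5%) and LCL ID alone with 434 (12.2%). CTCFL ID and CLC ID without LCL ID had 139 (3.9%). In the mock-treated CTCFL ID sample the sites were found in 1.12% and 5.64%, and after RNase in 9.93% and 2.44%, with lists of 9245 and 14848 peaks for mock and 9390 and 2556 for RNase. The ranges of the mock and RNase replicates overlapped, with RNase above mock in replicate 1 and below it in replicate 2.

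RAD21, the cohesin subunit, was found at almost none of these sites in both replicates of any group. Some lists were too short for a count in both replicates to say much. Replicate 2 held 238 regions in CTCFL D and 181 in CTCFL ID. In CTCFL D it had a region at 0.73% and 0.0561% of sites in the replicates, in CTCFL ID at 0.393% and 0.0561%, in CTCF D at 0.982% and 0.0561% and in CTCF ID at 0.309% and 0.0281%. At shared promoter sites RAD21 was present at 33% and 1.31% in CTCFL D and at 34.7% and 9.42% in CTCF D. At promoters without a CTCFL site it was present at 0.426% in replicate 1 of CTCFL D and 0.438% in that of CTCF D. In the replicates with the longer lists, CTCFL-only promoter sites were therefore much nearer to promoters without CTCFL than to shared promoter sites.

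**Figure D2:**
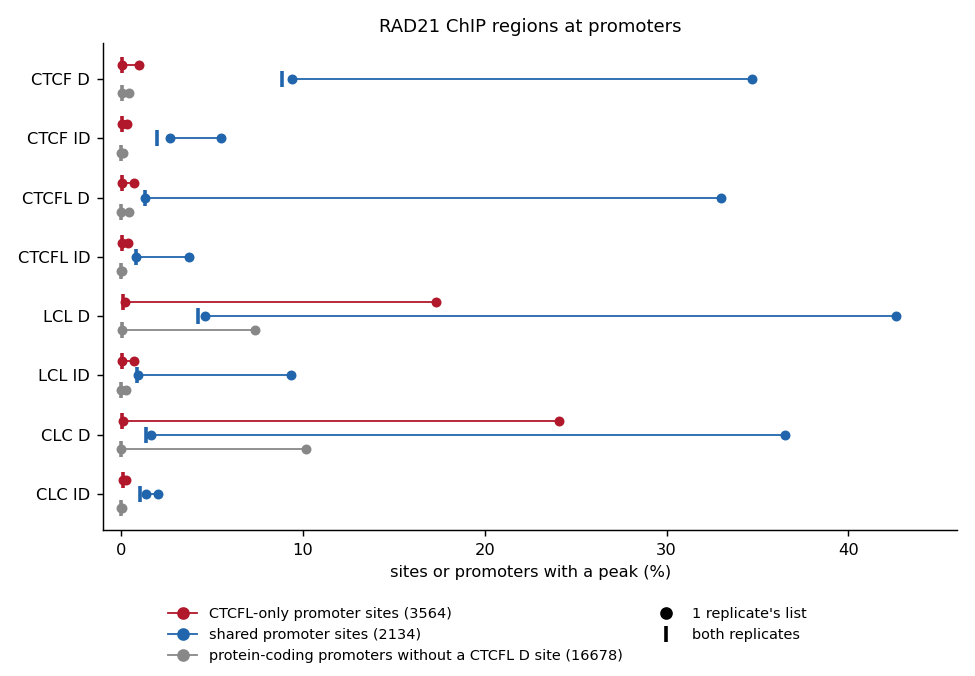
Share (%) of the same 3 classes of promoters with a RAD21 region in each group, with a point for each replicate's list and a tick for regions in both replicates. At CTCFL-only promoter sites the points lie under 1% except in replicate 2 of LCL D (17.3%) and of CLC D (24.1%).

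The exceptions were single libraries. Replicate 2 of LCL D had RAD21 at 17.3% of the sites and replicate 2 of CLC D at 24.1%, while their replicates 1 had 0.224% and 0.112%. The same 2 libraries also had RAD21 at 7.39% and 10.2% of promoters without a CTCFL site and at 42.6% and 36.5% of shared promoter sites. Their lists held 14913 and 10771 regions against 5292 and 1491 in replicate 1, and list lengths over all RAD21 libraries ran from 163 to 22765, so these shares rest on 1 library each. The part of list length and library quality in them was not tested.

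At 6 sites some group had RAD21 in both replicates. Gm21738 (chr14:19419220-19419497) had it in 7 of the 8 groups, and 1 of the 2 sites at the pseudogene Gm5067 (chr5:26006912-26007220) in 5. Vopp1 (chr6:57825050-57825553) had it in 2, in D of CLC and of LCL. The other Gm5067 site, 4931408C20Rik and the site of 4930507D10Rik and Spaca3 had it in 1 group each. Of their genes Vopp1 was measured best, with 456.5, 382.4 and 376.2 normalized counts in U and 449.9, 508.2 and 460.7 in D, and its difference was not called. The genes of the others were at 24.67 or less in every library of the CTCFL line.

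Genes at these sites were mostly active in U cells. The 3409 protein-coding genes of the table at CTCFL-only promoter sites had a median level of 176 normalized counts per kb of exon in U, those at shared promoter sites 161 and those without a CTCFL site 15.5. Only 2.35% of them were at 0 in all U libraries, against 27.3% of protein-coding genes without a CTCFL site, and 93.2% passed the filter of a mean of 10 normalized counts over the line, against 59.8%.

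When CTCFL was induced in the presence of CTCF, more genes at these sites rose than fell. Of 3326 genes tested in D against U, 228 (6.86%) were higher and 36 (1.08%) lower, a call needing an adjusted p below 0.01 and a change of more than 1 on the log2 scale, against 3.76% higher and 2.14% lower of all 16840 genes tested. The median log2 fold change was 0.071 at CTCFL-only promoter sites and -0.00283 over all genes tested. Genes at shared promoter sites had 7.98% higher and 1.66% lower, and genes without a CTCFL site 2.28% and 2.45%. Among the 228 genes the median change was 1.6 (quartiles 1.22 and 2.31) on the log2 scale, and 73 changed more than 4-fold. In 227 the D libraries did not overlap the U libraries, which a call made on the same libraries favours. Without some 1 of the 6 libraries, 47 of the 228 and 13 of the 36 lost an adjusted p under 0.01. In bulk RNA, fewer cells expressing a gene and less RNA per cell cannot be told apart.

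**Figure D3:**
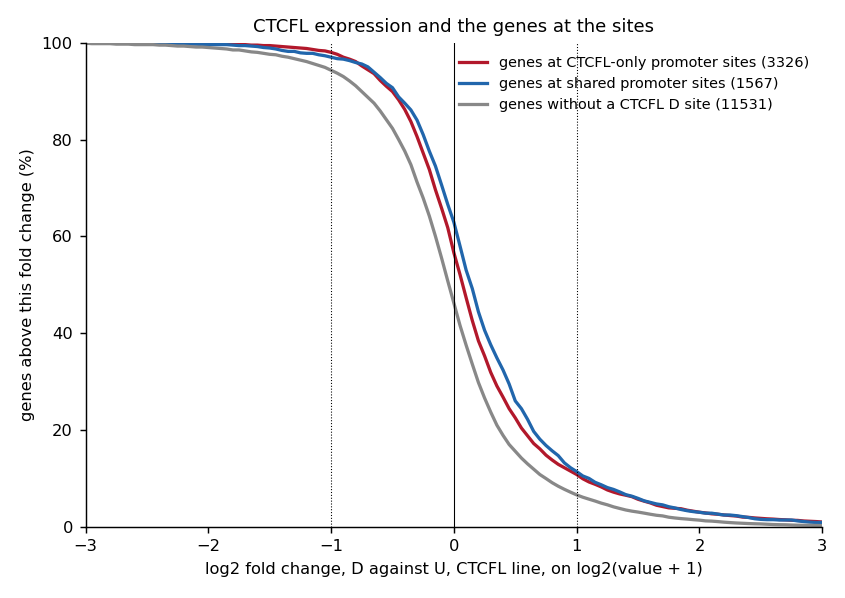
Share (%) of tested genes whose log2 fold change of D against U in the CTCFL line, on log2(value + 1), lies above the value on the horizontal axis, for genes at CTCFL-only promoter sites, at shared promoter sites and without a CTCFL D site. The medians are 0.071, 0.144 and -0.0404, and dotted lines mark the limit of 1 in either direction.

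At an adjusted p below 0.01 with no limit on size, 676 of the 3326 genes were higher and 432 lower. Of 11531 genes without a CTCFL site 1001 were higher and 1511 lower, and of 1567 at shared promoter sites 379 and 145. Calls above the limit of 1 were more frequent among genes of low level. In 4 classes by the mean level per kb over the CTCFL line, of equal size among the sites' genes and with limits at 53, 190 and 522 normalized counts per kb, 16.5% of the genes at sites rose in the lowest class, 7.22% and 2.17% in the middle ones and 1.56% in the highest. Genes without a CTCFL site had 3.84%, 2.78%, 1.01% and 0.218% in the same ranges. A gene that is near 0 in U passes the filter only if it is high in another condition, and 29 of the 228 had a mean under 10 in U. Among genes with a mean of at least 10 in U, 199 of 3200 at sites were higher (6.22%), against 3.44% of all such genes.

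**Figure D4:**
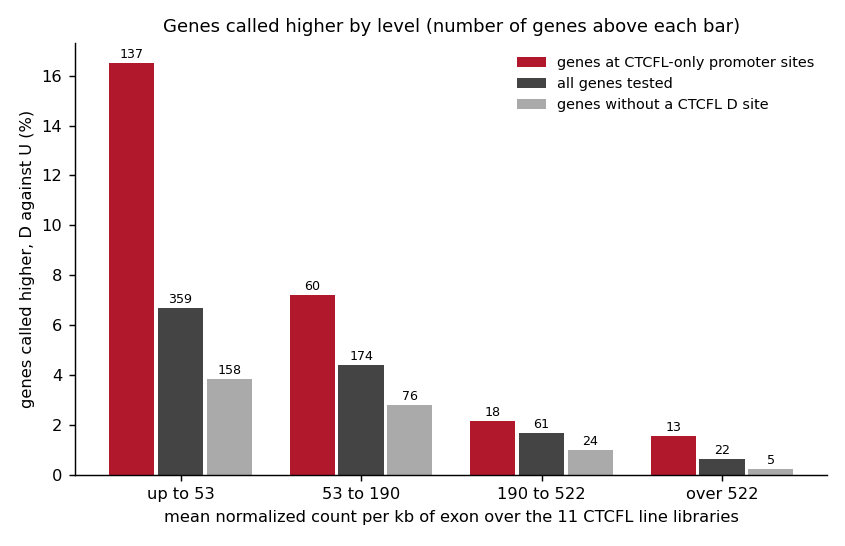
Share (%) of genes called higher in D against U of the CTCFL line, by classes of the mean normalized count per kb of exon over the 11 libraries, for genes at CTCFL-only promoter sites, all genes tested and genes without a CTCFL D site, with the number of called genes above each bar. The share at the sites falls from 16.5% in the lowest class to 1.56% in the highest.

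The share that rose was larger where CTCFL was found again after loss of CTCF. Of the genes at sites with CTCFL ID in both replicates 8.54% (195 of 2284) were higher in D against U, against 1.84% (9 of 488) at sites with CTCFL ID in neither. In the high class of CTCFL strength it was 9.88%, in the middle 6.89% and in the low 5.76%. Sites with CLC ID in both replicates had 8.95% and those with none 5.61%, while for LCL ID the figures were 6.66% and 7.47%. Sites with a peak in any CTCF list had 6.36% and those without 7.23%. Genes that shared their site with another gene had 4.26%, against 8.02% for genes alone at theirs. These are descriptions, and the differences between such classes were not tested.

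Pvalb, the calcium-binding protein parvalbumin of fast muscle and interneurons, had 1.35, 0 and 3.48 normalized counts in U, 124.3, 120 and 131.1 in D and 120.1 and 118.6 in ID. Its D and ID libraries overlapped and lay above all U libraries. Its log2 fold change in D, from log2(value + 1) as for all genes here, was 5.85 ± 0.62 (SE, adjusted p = 2.5e-07). Its site (chr15:78203584-78205590) had peaks of CTCFL ID, LCL ID, CLC ID and CLL ID in both replicates. Tmem132e, a gene of a membrane protein, had 2.69, 0.99 and 4.64 in U, 224.9, 190.9 and 131.1 in D and 226 and 213.1 in ID, and rose by 5.69 ± 0.52 (adjusted p = 3.4e-08).

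Gabra5, a subunit of the GABA-A receptor, had 1.35, 1.98 and 2.32 in U, 118.4, 144.8 and 89.89 in D and 80.81 and 48.25 in ID, with a log2 fold change of 5.35 ± 0.75 (adjusted p = 8.9e-06). Grin3a, a subunit of the NMDA receptor, had 0, 0 and 1.16 in U, 58.21, 44.32 and 18.73 in D and only 2.18 and 9.05 in ID, so its ID libraries lay between U and D. With 1 read in all U libraries, the fitted fold change of Grin3a depends on the added count of 1. C1ql2, a secreted synaptic protein of the C1q family, had 2.69, 0 and 2.32 in U, 65.12, 45.5 and 63.67 in D and 67.7 and 77.4 in ID. Fxyd7, a regulator of the sodium pump in neurons, had 0, 0.99 and 0 in U, 36.5, 30.14 and 22.47 in D and 30.57 and 64.33 in ID, and the same holds for its fold change. In each of these the D libraries lay above all U libraries.

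Ror1, a receptor tyrosine kinase for Wnt5a, had 1.35, 0 and 4.64 in U and 105.6, 144.8 and 104.9 in D, but 10.92 and 1.01 in ID. It rose in D by 5.64 ± 0.93 (adjusted p = 6.9e-05), and the change in ID was 1.05 (adjusted p = 0.41). Ror1 also lies at a shared promoter site. Galnt14, an enzyme that starts O-glycosylation, went from 1.35, 1.98 and 2.32 in U to 110.5, 124.7 and 97.38 in D, with 9.83 and 20.1 in ID. Rgs6, a regulator of G protein signalling, had 4.04, 0 and 3.48 in U, 111.5, 118.8 and 93.64 in D and 26.21 and 28.14 in ID. These 3 genes thus had high levels in D and much lower ones in ID. Olfml2a, a secreted olfactomedin-like protein, had 14.81, 5.93 and 10.45 in U, 228.9, 252.3 and 262.2 in D and 221.7 and 317.6 in ID, a rise of 4.53 ± 0.37 in D (adjusted p = 7.2e-09). Cr2, the complement receptor of B cells, had 5.39, 3.95 and 8.13 in U, 123.3, 170.2 and 134.8 in D and 97.18 and 171.9 in ID. For Olfml2a and Cr2 the D and ID levels overlapped.

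Of the germline and cancer-testis genes, 10 of the 71 listed lay at a CTCFL-only promoter site, and 3 of these rose and none fell in D against U. In the whole list 13 of 67 tested genes were higher and 1 lower. Of all genes tested 3.76% were higher and 2.14% lower, and of the sites' genes 6.86% and 1.08%. Both counts of higher genes include Ctcfl. Ctcfl rose from 192.6, 225.3 and 205.5 in U to 7764, 9398 and 7570 in D, but the reads of the transgene count for it, so this shows its induction and not a response of the endogenous gene. Its site (chr2:173118711-173120335) lies at the start of both Ctcfl and the antisense gene Ctcflos, which had 2.69, 11.86 and 0 in U and 81.89, 103.4 and 138.6 in D. As the use of strand in counting is not stated, reads of Ctcflos and Ctcfl cannot be told apart. Prss50, the testis protease-like gene, had 90.22, 106.7 and 75.48 in U, 950.1, 925.4 and 936.4 in D and 1360 and 1282 in ID, a rise of 3.37 ± 0.16 in D (adjusted p = 1.5e-12) and of 4.17 ± 0.18 in ID against I (adjusted p = 2.5e-13). At its site (chr9:110857078-110858705) CTCFL, LCL, CLC and CLL had peaks in both replicates of ID, and CTCF D in both replicates as well.

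Stra8, which is needed for entry into meiosis, was already abundant in U with 3866, 3985 and 3979 normalized counts. It had 9877, 9561 and 11220 in I, 11550, 11940 and 11900 in D and 18930 and 20240 in ID, so IAA and Dox each raised it and ID was above both. The changes were 1.58 ± 0.06 in D (adjusted p = 2.3e-13) and 1.37 in I (adjusted p = 6.4e-13) against U, and 0.94 ± 0.07 in ID against I. Rec8, the meiotic cohesin subunit, had 2125, 2081 and 2076 in U and 3289, 3283 and 3584 in D, a log2 fold change of 0.69 ± 0.07 (adjusted p = 4.9e-08), below the limit of 1 for a call. Tex19.2, a germline gene at one of the 10 strongest sites, rose from 80.79, 49.41 and 91.73 in U to 373.9, 328.6 and 228.5 in D and 452.1 and 492.5 in ID (2.07 ± 0.25 in D, adjusted p = 1.5e-06). The other genes at the 10 strongest sites that could be tested, Zfp109, Zfp747, Dram2, Cept1, 2610002M06Rik, Mns1 and Atp8b5, were not called in D against U, with log2 fold changes from -0.68 for Dram2 to 0.51 for 2610002M06Rik. At the strongest of all, Gm5444 was at 0 in every library of the line.

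Of the interferon and JAK-STAT genes at the sites, Jak2, a kinase of cytokine receptors, had 445.7, 570.2 and 469.1 in U and 1111, 1197 and 1198 in D (1.25 ± 0.13, adjusted p = 1.5e-07). Of 5 p53 target genes at the sites 2 rose, which are also the 2 of 30 tested in the whole list, where 3.76% of all genes were higher: Plk2, a stress-induced kinase, with 4756, 5029 and 5093 in U and 12700, 14070 and 13480 in D, and Ddit4, an inhibitor of mTORC1, with 2847, 3166 and 2868 in U and 6617, 6799 and 5749 in D. Their changes were 1.44 ± 0.07 (adjusted p = 1.3e-12) and 1.11 ± 0.08 (adjusted p = 6.4e-10). Of 9 Notch genes, 8 of which were tested, Nrarp, a feedback inhibitor of the pathway, rose from 76.75, 100.8 and 130.1 to 187.5, 289 and 247.2 (1.24 ± 0.20), and the receptor Notch1 had 0.75 ± 0.09, below the limit. Nrarp was the 1 Notch gene at the sites called higher, while in the whole list 4 of 36 tested genes were higher and 0 lower.

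The TGF-beta list had 12 genes at the sites, none of which was called in D against U, with a median log2 fold change of 0.0461. Among them Klf10, a TGF-beta-induced transcription factor, had 5274, 5045 and 4825 in U and 5219, 5914 and 5240 in D, and the groups overlapped. Klf10 in ID, at 7282 and 7299, lay above I at 4207, 4033 and 3983 by 0.84 ± 0.07 (adjusted p = 1.2e-08). No call was made in D against U among 6 adhesion genes, of which 5 were tested, or among 3 genes of cohesin and its regulators, Nipbl, Pds5a and Rec8.

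The pluripotency list had 5 genes at the sites, none called in D against U and 4 lower in ID against U, a comparison in which 10.7% of all genes and 13.4% of the sites' genes were lower. In the whole list 7 of 30 genes were lower in D against U and 0 higher, a comparison in which 2.14% of all genes were lower and 3.76% higher. Tfcp2l1, a factor of the naive state, had 22180, 19230 and 24740 in U, 17030, 17520 and 17540 in D and 5781 and 5982 in ID, and fell by 1.90 in ID (adjusted p = 8.5e-12). Sox2, a core pluripotency factor, had 10290, 9826 and 9410 in U and 4052 and 4001 in ID, and fell by 1.29 (adjusted p = 1.5e-12). Nr0b1 and Klf5 were the other 2. All 10 embryonic stem cell markers were detected in U, none of them at 0. Their summed level ran from 157474 to 167042 in U, 121600 to 123880 in I, 105858 to 108254 in D and 74036 to 76171 in ID, so it moved with the conditions. The 8 germ cell markers summed to 9644 to 10120 in U and 17334 to 18218 in D, with Acrv1 at 0 in the whole line. Most of that rise was the rise of Stra8, whose values are given above. It was the 1 marker called higher in D against U among the 5 germ cell markers tested. Neural markers were lower in D (2296 to 2446) than in U (3908 to 4108), mesoderm markers overlapped (202 to 264 against 195 to 216), trophectoderm markers were higher (277 to 357 against 155 to 225), and endoderm (2405 to 2511 against 3329 to 3695) and fibroblast markers (2708 to 2981 against 3120 to 3684) were lower. The part of such shifts in the results for the sites was not tested. Of marker genes at the sites, only Stra8 was called in D against U. Kdr and Mixl1 of mesoderm, Cdx2 and Eomes of trophectoderm and Vim of fibroblasts were not called.

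Among gene families, grouped by symbol, solute carriers stood at 69 sites' genes, 67 of them tested, with 11 higher and 0 lower in D against U and a median of 0.177, where 6.86% of all the sites' genes were higher and 1.08% lower. Families were singled out after their values had been seen, and their differences were not tested. Slc13a3, a carrier of dicarboxylates, rose from a mean of 10.21 to 101.5 (3.29 ± 0.43), Slc1a2, the glial glutamate transporter, from 7.63 to 75.8 (3.33 ± 0.76), and Slc43a1, an amino acid carrier, from 140.3 to 416.1 (1.56 ± 0.16). Of 77 tested zinc finger protein genes, 1 was higher (Zfp703) and 4 were lower (Zfp14, Zfp566, Zfp59 and Zfp932). Of 9 tested histone genes, most of which lack a poly(A) tail and are measured poorly in poly(A) libraries, Hist1h1e and Hist3h2ba rose. Housekeeping families were present at the sites and showed no calls, as in 14 cytosolic and 13 mitochondrial ribosomal protein genes, 13 splicing factors and 10 translation initiation factors.

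The 36 genes that fell changed less, with a median of 1.22 on the log2 scale and only 2 above 4-fold. Dkk1, a secreted inhibitor of Wnt signalling, fell from 300.3, 303.4 and 362.3 in U to 74.98, 90.41 and 86.15 in D and 76.44 and 80.41 in ID, with a log2 fold change of -1.93 ± 0.20 (adjusted p = 1.5e-07). Mycn, a growth-promoting transcription factor, had 1134, 1022 and 882.5 in U, 520.3, 386.2 and 433.5 in I and 293, 388.2 and 408.2 in D (-1.48 ± 0.15, adjusted p = 1.4e-07). It was thus lower with IAA as well, the I and D libraries overlapping. Zfp566, a zinc finger gene, fell from 443, 391.3 and 386.7 to 113.5, 153.1 and 127.3 (-1.63 ± 0.18, adjusted p = 4e-07). Ripk1, a kinase of inflammation and cell death, fell from 327.2, 306.3 and 376.2 to 141.1, 148.9 and 108.6 (-1.34 ± 0.17, adjusted p = 2.8e-06). Eva1a, a regulator of autophagy, had 375.7, 412.1 and 375.1 in U, 181.5, 180.2 and 97.38 in D and 52.41 and 50.26 in ID. In all of these the D libraries lay below all U libraries.

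Fastkd5, a factor of mitochondrial RNA processing, fell to 74.98, 32.5 and 74.91 in D from 196.6, 188.7 and 211.3 in U, but had 101.5 and 191 in ID, and its ID against U was not called. Gdpgp1, an enzyme that clears GDP-glucose, went from 358.2, 307.3 and 307.7 to 118.4, 166.7 and 97.38 (-1.37 ± 0.20, adjusted p = 1.8e-05), and Cdh22, a cadherin, from 110.4, 142.3 and 124.2 to 56.24, 63.82 and 26.22 (-1.44 ± 0.31). The calls of Nkain4 (-2.29 ± 0.50), the antisense genes A430057M04Rik (-2.07 ± 0.47) and Gm16845 (-1.80 ± 0.49) and Cdk5r1 (-1.45 ± 0.41), an activator of the kinase Cdk5, each rested on single libraries: without 1 of them the adjusted p rose to 0.01122, 0.01155, 0.05676 and 0.05922. Cdk5r1 was also not called by edgeR or DESeq2.

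**Figure D5:**
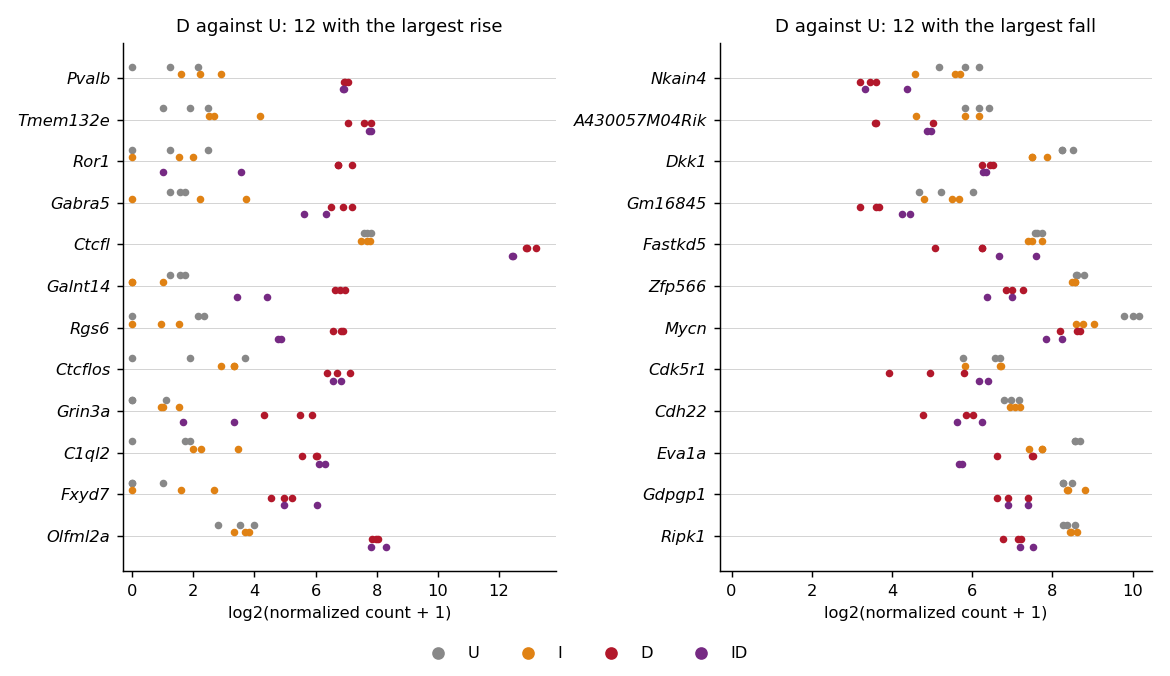
Level of the 12 genes at the sites with the largest rise (left) and the 12 with the largest fall (right) in D against U, as log2(normalized count + 1), with one point per library of the CTCFL line coloured by condition. ID libraries lie beside the D libraries for Pvalb, Tmem132e and Olfml2a and below them for Ror1, Galnt14 and Rgs6.

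The same contrast in the absence of CTCF, ID against I, shares no library with D against U. Both came from 1 fit, so they share each gene's estimate of spread and the filter on low values. At CTCFL-only promoter sites 178 genes (5.35%) were higher and 116 (3.49%) lower, against 3.94% and 3.89% of all genes tested. Of the 228 genes higher in D against U, 115 (50.4%) were also called higher in ID against I, which is 64.6% of the 178. None was called in the opposite direction, and 215 of the 228 (94.3%) were above 0, with a median of 1.2. Over all genes tested the shares were 47.5% and 45.4%, with 0 opposite, 595 of 634 (93.8%) above 0 and a median of 1.15, so except for the share of ID against I calls the values at the sites were near the background. Of the 36 lower genes 17 (47.2%) were also lower in ID against I, which is 14.7% of the 116, against 39.2% and 21.5% over all genes tested. Genes at shared promoter sites had 16.1% higher and 2.04% lower in ID against I, so CTCFL-only promoter sites were nearer to the background in the absence of CTCF than shared ones were.

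The comparisons of I and of ID with U include the loss of CTCF and share their U libraries with D against U, and their values are given beside it. In I against U 93 genes (2.8%, background 3.69%) were higher and 292 (8.78%, background 5.88%) lower. In ID against U 352 (10.6%, background 8.91%) were higher and 446 (13.4%, background 10.7%) lower. Genes at shared promoter sites had 10.8% lower in I against U, a larger share than the sites' genes, and 7.15% in ID against U. Genes without a CTCFL site had 4.54% and 10.5% lower. The sites' genes thus had a larger share of lower calls than all genes in both comparisons, with or without the transgene. Ltbp1, which binds latent TGF-beta, was one of them, with 366.3, 399.2 and 455.2 in U, 41.96, 47.91 and 29.87 in I and 54.6 and 64.33 in ID, and it was 593.9, 803.1 and 662.9 in D. Nipbl, the loader of cohesin, had 4414, 5402 and 5528 in U, 5676, 5535 and 5783 in D and 2020 and 2019 in ID. In I against U Nipbl was not called.

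The other lines show what Dox and other transgenes did to the same genes. In D against U the CTCF line had 7 of 3261 genes higher (0.215%, background 0.216%) and 9 lower (0.276%, background 0.239%). LCL had 36 higher (1.16%, background 1%) and 30 lower (0.969%, background 0.903%), and CLC 10 higher (0.323%, background 0.352%) and 6 lower (0.194%, background 0.248%). In these lines the sites' genes were therefore near the background. LCL and CLC had 2 libraries per group and the CTCF line 3 D against 2 U, against 3 and 3 in the CTCFL line. In the libraries labelled D of the CTCF line no rise of Ctcf RNA was measured, and the cause was not tested.

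The difference between lines was tested directly, as D against U in the CTCFL line minus that in another line. At the sites, 110 genes were higher and 35 lower against the CTCF line (3.38% and 1.08%, background 1.74% and 1.76%), 119 and 71 against LCL (3.66% and 2.18%, background 2.25% and 2.82%), and 121 and 64 against CLC (3.72% and 1.97%, background 2.24% and 2.82%). Of the 228 genes that rose with CTCFL, 217 could be tested for a difference, and 83 (38.2%) rose more than in the CTCF line, 52 (24%) more than in LCL and 76 (35%) more than in CLC. Their median log2 fold change was 0.207 with the CTCF transgene, 0.629 with LCL and 0.332 with CLC. These 228 genes were chosen for their rise in the CTCFL line, which favours a difference.

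Single genes varied in this. Prss50 changed by 2.37 in LCL (adjusted p = 0.000694), by 1.29 in CLC (adjusted p = 0.0635), and in the CTCF line by 0.18, and the difference between CTCFL and LCL was not called. Stra8 changed by 0.03 in LCL, 0.49 in CLC and 0.11 with CTCF, and its difference was called against each. Pvalb also rose in the CTCF line, from 0 and 0 in U to 26.31, 24.43 and 18.47 in D, and the difference of 1.27 between the lines was not called (adjusted p = 0.3756). For Notch1 and Rec8 no difference from another line was called, which does not show that they responded alike.

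The DNA at CTCFL-only promoter sites was close in composition to that of promoters in general. In 201 bp around the summit the median GC content was 61.7%, against 59.7% at all protein-coding promoters, 56.2% at shared promoter sites, 50.7% at CTCFL-only sites away from start sites and 56.7% at promoters without a CTCFL site. The ratio of observed to expected CpG was 0.66, against 0.636, 0.515, 0.224 and 0.505 in the same order. A CTCF core matrix of 14 positions was built from the shared sites away from start sites and scored within 50 bp of each summit, with the limit at the 95th percentile of windows moved by 10000 bp. A match was present at 456 CTCFL-only promoter sites (12.8%), at 31.6% of shared promoter sites, at 20.4% of CTCFL-only sites away from start sites and at 5.6% of promoters without a CTCFL site, which were centred on the start. The shared sites away from start sites, on which the matrix was built, had 39.2%. At a limit of the 99th percentile the shares were 3.11%, 20.1%, 9.54% and 0.546%. So most CTCFL-only promoter sites held no match, and the share was above that of other promoters and below that of shared sites.

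Matches were more frequent at stronger sites, with 10.7%, 14% and 16.8% from the low to the high strength class, and at sites with a peak in any CTCF list (15.7%) than at those without (10.5%). The genes at sites with a match rose in 8.82% of cases and the others in 6.59%. Among short motifs searched on both strands in the same 201 bp, the core centre AGGGGGC was found at 15.6% of sites, against 9.36% of all promoters and 22.7% of shared promoter sites. The letters TAGGGG, chosen after the printed windows had been read and overlapping the core centre in part, were found at 13.8%, against 7.41% and 14.4%. Other promoter motifs were no more frequent than in all promoters, with 37.1% against 42% for the GC box GGGCGG, 21% against 27.9% for CCAAT, 6.71% against 9.82% for the ETS letters CCGGAAG, 1.46% against 2.78% for the NRF1 letters GCGCATGC, 0.926% against 2.09% for TGACGTCA and 3.34% against 8% for TATAAA, except the E box CACGTG with 6.9% against 5.69%. A window centred on a summit and one centred on a start site are not the same place in a promoter, and the absence of letters in a window says nothing of the factor.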

How the data were processed

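The samples were 122 in all, of which the FLAG and RAD21 ChIP-seq and the RNA-seq libraries were used here. FLAG and RAD21 ChIP was ChIPmentation. Reads were mapped by the authors with Bowtie2 (GRCm38/mm10), who kept unique reads, removed duplicates and called peaks with MACS for each replicate. The deposited peak lists give the fold over the local background and the −log10 q value. The control library of the peak calls is not given in the sources used here, and the lists differ in their lowest −log10 q, about 2 for most FLAG lists, 1.3 for CLL and LLC and 1 for RAD21. For RNA-seq the authors aligned poly(A) reads with STAR, and the deposited signal values are gene counts divided by 1 size factor per library. Whole reads were recovered, with 100% of values of up to 500 reads within 0.1 of a whole number, in 36 of 38 libraries, CTCFL I replicate 2 and CTCFL ID replicate 2 being the others. Submitters' processing notes name Trim Galore 0.4.4, Bowtie2, SAMtools 1.3, HTSeq and deepTools.

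A gene belonged to a site if one of its GENCODE starts lay within 1000 bp of the site's middle. Symbols of the table matched GENCODE for 46503 of 52459 genes. After addition of 1, log2 values were fitted in limma (version 3.58.1, R 4.3.3), in 1 fit per line over U, I, D and ID on genes with a mean of at least 10, with Benjamini-Hochberg adjustment over all genes tested. A call needed an adjusted p below 0.01 and a change of more than 1, up or down, on the log2 scale. Differences between lines came from 1 fit over all lines. On recovered reads edgeR 4.0.16 and DESeq2 1.42.0 were alternatives. The matrix of the CTCF core was estimated in 10 rounds from 11993 shared sites away from starts. Figures and overlaps used Python 3.11.15. The tests were checked on simulated data.

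Genes named in the text are the 12 higher and the 12 lower with the largest change among called genes at the sites, the genes at the 10 strongest sites, genes that the study names, up to 4 a list of the fixed lists, up to 10 called alike in D and ID, and the sites with RAD21 in both replicates. Solute carriers, zinc finger and histone genes were named after their values had been seen. Members, lists and tests were chosen with earlier results of these data known. Samples were grouped by their labels. Hi-C and IgG samples were not analysed here. The results of 1 gene at the sites are not reported here.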

Additional observations from a re-analysis of the deposited data

Results flagged for a closer look

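For 14 of the genes named in the text the response to Dox in the CTCFL line differed from that in the CTCF, LCL and CLC lines. Each differed by the test of the difference itself (limma, adjusted p under 0.01 and a difference above 1 on the log2 scale). The smallest of the 3 differences is given for each gene as the CTCFL line minus the other line. It was 5.09 for Rgs6, 4.69 for Ror1, 4.29 for Galnt14, 4.09 for Olfml2a and 3.48 for Cr2. It was 1.12 for Ddit4, 1.10 for Jak2 and 1.09 for Stra8. Among genes that fell, it was -1.96 for Nkain4, -1.70 for Fastkd5, -1.45 for Eva1a, -1.24 for Gdpgp1, -1.16 for Ripk1 and -1.15 for Dkk1. These genes are among those named by their change in the CTCFL line, which favours such differences. Of all 3255 genes at the sites tested for a difference, 3.38% were higher and 1.08% lower against the CTCF line (background 1.74% and 1.76%). Against LCL the shares were 3.66% and 2.18% (background 2.25% and 2.82%), and against CLC 3.72% and 1.97% (background 2.24% and 2.82%).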

How the results depend on the processing

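Of the values that answer a comparison, 68 moved under an alternative and 190 did not. A share of bound sites had moved if it changed by more than the SD between replicates, and a count if by over 1.5 times. The share with a core match, which has no replicates, had moved if it left a binomial confidence interval that took sites as independent. Where replicates lie far apart a share can drop without counting as moved, as for CLC D (0.253%) and CLL ID (0.253%) at the shortest list length and CLC D (0.55%) and CLL ID (4.1%) at the sites without any CTCF peak. Counting any peak of a single CTCF library left 1999 sites, and using 1 replicate alone gave 4024 to 7305, the most with replicate 1 of CTCFL D and CTCF ID. Single replicates gave ranges of 18.9% to 42.9% for CTCF D, 75.6% to 77.2% for CTCFL ID, 36.3% to 46% for LCL D, 64% to 67.6% for LCL ID, 3.06% to 7.01% for CLC D, 29.5% to 38.2% for CLC ID, 0.168% to 7.94% for CLL D, 9.71% to 28.6% for CLL ID, 0.196% to 0.786% for LLC D and 0.393% to 0.814% for LLC ID, and for RAD21 0.112% to 24.1% in CLC D, 0.0842% to 0.253% in CLC ID, 0.0561% to 0.982% in CTCF D, 0.0281% to 0.309% in CTCF ID, 0.0561% to 0.73% in CTCFL D, 0.0561% to 0.393% in CTCFL ID, 0.224% to 17.3% in LCL D and 0.0561% to 0.73% in LCL ID. With the 2233 top-ranked peaks of each list, the length of the shortest, CTCFL ID had 0.505%, LCL ID 0.309%, LCL D 0.337%, CLC ID 0.14%, CTCF D 0.0561% and LLC ID 0, so few lists can be read at that length. With 25137 peaks, added after the lists were seen, CTCFL ID had 46.6% and LCL ID 21.9%. At the 1999 sites CTCFL ID had 57.2%, LCL ID 35.8%, LCL D 7.6%, CLC ID 13.9% and, by construction, CTCF D 0. Their genes, being fewer, gave 141 higher and 18 lower calls in D against U, 203 and 269 in ID against U, 59 and 177 in I against U and 90 and 66 in ID against I. The share with a core match was 10.6% within 25 bp, 3.11% at the 99th percentile and 18.4% with a matrix re-estimated only on matches, added later.

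Leaving out 1 library gave 197 to 217 higher and 28 to 45 lower calls in D against U of the CTCFL line. In the CTCF line it gave 0 to 7 higher and 1 to 9 lower, with 0 and 1 without U replicate 2, 2 and 5 without D replicate 1, 2 higher without D replicate 3 and 5 lower without U replicate 1. In LCL it gave 13 to 40 higher and 14 to 32 lower, with 13 higher without D replicate 2, 19 without D replicate 1 and, without U replicate 1, 19 and 14. In CLC it gave 1 higher and 0 lower whichever of its D or U libraries was left out. A lone library was assumed to vary like the other groups. Replicate numbers share only a number, since correlations of same-numbered libraries ran from -0.297 to 0.162 and not every library correlated best with its own number. With the replicate block the counts were 220 and 33 in D against U of the CTCFL line, 2 and 4 in the CTCF line and 4 and 1 in CLC, and no other count moved by over 1.5 times. Without 1 library Itga3 (1.03) and Nr0b1 (-1.08) were called. The RAD21 lists of 163 to 22765 regions and the 6847072 reads of D replicate 3 limit what could be detected.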
